A study of Mus musculus with 6 samples.

Results

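The glutathione S-transferases (Gst and Mgst), UDP-glucuronosyltransferases (Ugt) and sulfotransferases (Sult) are the conjugation enzymes of the liver. Their genes were taken from the table by symbol, with the classes Gsta, Gstk, Gstm, Gstp, Gstt and Mgst, the families Ugt1 to Ugt3, and every Sult. In all, 45 of the 17624 genes matched, of which 17 were glutathione transferases, 15 were UDP-glucuronosyltransferases and 13 were sulfotransferases. A mean of at least 1 RPKM (reads per kilobase, normalised for the number of mapped reads) over the 6 libraries was reached by 39 of them, as by 6448 genes in all.

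Conjugation makes lipid-soluble compounds water-soluble so that bile and urine can carry them away. Glutathione transferases join the tripeptide glutathione to electrophiles, UDP-glucuronosyltransferases add glucuronic acid from UDP-glucuronic acid, and sulfotransferases add sulfate from the donor PAPS. Hepatocytes hold all of these systems and use them on bilirubin, bile acids, steroid and thyroid hormones, lipid peroxidation products and drugs.

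The livers came from C57BL/6 females of the first offspring generation (F1). The fathers of the iAsF1-F females drank water with inorganic arsenic (iAs, given as sodium arsenite) for 3 weeks before they were mated with unrelated, unexposed females. The fathers of the conF1-F females were bred at the same time as controls, and no F1 mouse of either group was itself given iAs. RNA-seq was done on total RNA of whole liver from 3 conF1-F and 3 iAsF1-F females, harvested in the fed state after refeeding. The age at harvest was not given in the sources used here.

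Over the whole table, the summed RPKM of a library ran from 295275 to 306096. The number of reads is unknown, but the size of the steps between low values put the relative depth of the libraries at 67.6% to 100% of the deepest one. Hepatocyte markers (albumin, transthyretin and others, 9 of 9 measured) summed to 37928 to 44694 RPKM in conF1-F and 40620 to 45670 RPKM in iAsF1-F and were thus high in every library. By gene, 8 of these 9 had a log2 fold change above 0 (49.7% of all genes tested), with a median of 0.16. Without overlap between groups, 3 were higher and 0 lower (5.83% and 5.71% of all genes tested). Pericentral hepatocyte markers had 4 of 9 tested above 0, with 0 higher and 2 lower without overlap. Their sums were 1790 to 2097 RPKM in conF1-F and 1773 to 1878 RPKM in iAsF1-F. Periportal ones had 8 of 9 above 0 and 0 without overlap, with sums of 605 to 706 and 648 to 808 RPKM. Erythroid markers summed to 372 to 647 RPKM in conF1-F and 237 to 367 RPKM in iAsF1-F, and 2 of 4 tested were lower without overlap. Kupffer cell markers summed to 92.1 to 172 and 51.2 to 132 RPKM, with 0 of 6 without overlap. Cholangiocyte markers summed to 5.05 to 18.8 RPKM in conF1-F and 3.58 to 6.22 RPKM in iAsF1-F. No measured marker on these lists was at 0 in all 6 libraries, and their part in the results below was not tested. In whole tissue, fewer cells of a type and less RNA per cell cannot be told apart.

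The Ugt1 genes are the clearest case of members that share sequence, and their printed stretches show where one ends and the common part begins. Each Ugt1 gene has a first exon of its own, followed by the same exons for all. The lines give coding bases across that junction from 5′ to 3′ on the + strand of GRCm38, the genome build that mm10 names, with 36 bases of the gene's own first exon in lower case and 24 bases of the shared second exon (chr1:88215044-88215067) in capitals. The lower-case bases of Ugt1a1 lie at chr1:88212836-88212871, those of Ugt1a2 at chr1:88201465-88201500, those of Ugt1a9 at chr1:88071643-88071678, those of Ugt1a6b at chr1:88107764-88107799, those of Ugt1a6a at chr1:88139296-88139331 and those of Ugt1a10 at chr1:88056301-88056336.
Ugt1a1: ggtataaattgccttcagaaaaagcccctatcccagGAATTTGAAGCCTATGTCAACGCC
Ugt1a2: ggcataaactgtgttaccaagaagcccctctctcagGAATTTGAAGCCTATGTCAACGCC
Ugt1a9: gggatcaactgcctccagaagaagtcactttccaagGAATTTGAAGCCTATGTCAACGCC
Ugt1a6b: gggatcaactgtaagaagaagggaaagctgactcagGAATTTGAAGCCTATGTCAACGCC
Ugt1a6a: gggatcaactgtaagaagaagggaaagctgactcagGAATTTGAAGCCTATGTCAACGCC
Ugt1a10: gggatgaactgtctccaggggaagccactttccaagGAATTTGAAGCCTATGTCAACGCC
After the junction all 6 had the same 735 coding bases, so that reads from there fit every Ugt1 gene. The printed bases of Ugt1a6a and Ugt1a6b were identical on both sides, and their whole coding sequences were 98.4% identical.

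The Sult2a genes are near copies in another way, as separate genes side by side on chromosome 7. The first 90 coding bases of 5 of them are shown in lower case, with the letters that differ from Sult2a1 in capitals. They are exonic and lie on GRCm38 at chr7:13837267-13837356 (- strand) for Sult2a1, chr7:13733559-13733648 (+ strand) for Sult2a2, chr7:13624045-13624134 (+ strand) for Sult2a5, chr7:14122904-14122993 (- strand) for Sult2a3 and chr7:14492882-14492971 (- strand) for Sult2a7.
Sult2a1: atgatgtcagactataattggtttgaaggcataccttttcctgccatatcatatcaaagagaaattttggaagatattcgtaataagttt
Sult2a2: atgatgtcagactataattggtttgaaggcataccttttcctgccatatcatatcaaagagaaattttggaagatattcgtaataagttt
Sult2a5: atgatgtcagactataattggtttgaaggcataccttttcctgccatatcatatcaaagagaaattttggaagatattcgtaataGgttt
Sult2a3: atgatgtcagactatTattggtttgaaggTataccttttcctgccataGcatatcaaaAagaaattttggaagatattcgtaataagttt
Sult2a7: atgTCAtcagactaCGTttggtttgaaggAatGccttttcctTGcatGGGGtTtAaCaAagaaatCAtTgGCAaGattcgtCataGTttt
Sult2a2 had 0 differences from Sult2a1 in this stretch, Sult2a5 had 1, Sult2a3 had 4 and Sult2a7 had 28. Over the coding bases that could be aligned, Sult2a1 and Sult2a2 were 97.9% identical. Other close pairs were Gsta1 and Gsta2 (98.0%), Ugt1a9 and Ugt1a10 (95.6%), Ugt2b5 and Ugt2b37 (94.7%), Ugt3a1 and Ugt3a2 (93.2%) and Sult3a1 and Sult3a2 (90.9%). How reads that fit more than 1 gene were assigned is not given in the sources used here, so values of single members of such pairs are uncertain.

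Together the 45 genes took 0.704% to 0.834% of the summed RPKM of a library. RPKM is per length, but the decimals of 18 members, Mgst1 and Gstm1 included, show a mean over several entries. Levels of different genes are thus only roughly comparable. They ranged from Ugt1a1 with a mean of 375.5 RPKM to members near 0. After Ugt1a1 came Mgst1 at 274 RPKM, Gstm1 at 228 RPKM, Ugt2b5 at 204 RPKM, Sult2a1 at 114 RPKM and Sult2a2 at 106 RPKM. Below 1 RPKM lay Gsta1, Gsta2, Gstm5, Sult2b1, Sult5a1 and Ugt1a10, the highest of which was Gsta2 at 0.984 RPKM, just under the limit, while the lowest member above it was Sult1b1 at 1.74 RPKM. For these 6 no fold change was taken. Gsta2 measured 0, 0.521 and 0.932 RPKM in conF1-F and 2.96, 0.633 and 0.861 RPKM in iAsF1-F, and Gsta1 was at 0 in every liver but iAsF1-F replicates 1 (0.281 RPKM) and 2 (0.434 RPKM). Gstm5 was above 0 only in replicate 1 of either group, at 1.43 RPKM in conF1-F and 2.18 RPKM in iAsF1-F. Sult2b1 was above 0 only in iAsF1-F replicate 2 (0.0378 RPKM), and Sult5a1 only in conF1-F replicates 1 (0.333 RPKM) and 2 (0.173 RPKM). Ugt1a10 is given with its close copy Ugt1a9.

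**Figure D1:**
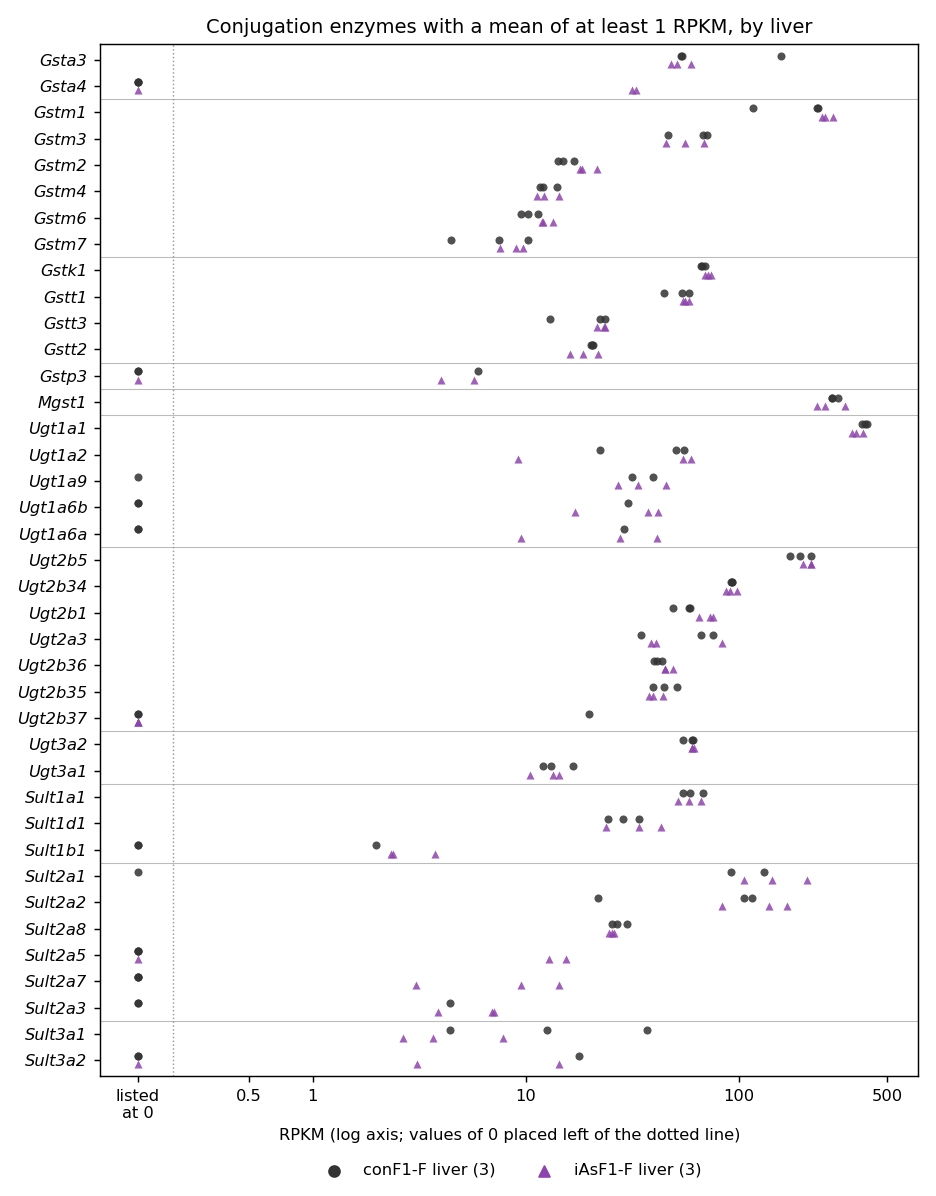
RPKM (log axis) of the 39 conjugation enzymes with a mean of at least 1 RPKM in each of 3 conF1-F livers (dark circles) and 3 iAsF1-F livers (purple triangles), grouped by family, with values of 0 set left of the dotted line. Ugt1a1 was the highest member in every liver, and 12 members had at least 1 liver at 0.

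Fold changes were tested with limma on log2(RPKM + 1) over the 6448 genes, with Benjamini-Hochberg adjustment. None of the 39 conjugation enzymes passed an adjusted p of 0.05 (0 called), against 0.248% of all genes tested (16 genes). The smallest adjusted p of a member was 0.268, for Sult2a7. At an unadjusted p under 0.05, 5 members were higher in iAsF1-F (Sult2a7, Ugt2b1, Gstm2, Sult1b1 and Sult2a3) and 0 were lower, where the whole table had 2.75% higher and 2.37% lower. In 8 members every iAsF1-F liver lay above every conF1-F liver, and in 0 members every iAsF1-F liver lay below, while the whole table had 5.83% and 5.71%. These 8 were Gstk1, Gstm1, Gstm2, Gstm6, Ugt2b1, Ugt2b36, Sult1b1 and Sult2a7. Of the 39 members, Gsta4, Sult1b1, Sult2a5 and Sult2a7 averaged under 1 RPKM in conF1-F and met the limit through iAsF1-F alone. Their place on the higher side is thus not separate from the filter. Ugt2b37 met the limit through conF1-F alone.

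Part of this one-sidedness came with values of 0. The median log2 fold change of the 39 members was 0.15 and 25 of them lay above 0, where the median of all tested genes was 0.00 and 49.7% lay above 0. Among the 27 members above 0 in every liver the median was 0.01, and 14 of 27 lay above 0 (49.1% of all genes above 0 in every liver). In that set 6 members were higher without overlap and 0 lower, against 6.34% and 6.23% of the 5187 genes above 0 in every liver. The summed RPKM of the 27 was 2046 ± 30.5 (SD, n = 3) in conF1-F and 2109 ± 32.0 in iAsF1-F, and the groups overlapped. With all 45 genes the sums were 2202, 2262 and 2086 RPKM in conF1-F and 2375, 2535 and 2338 RPKM in iAsF1-F, which did not overlap.

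**Figure D2:**
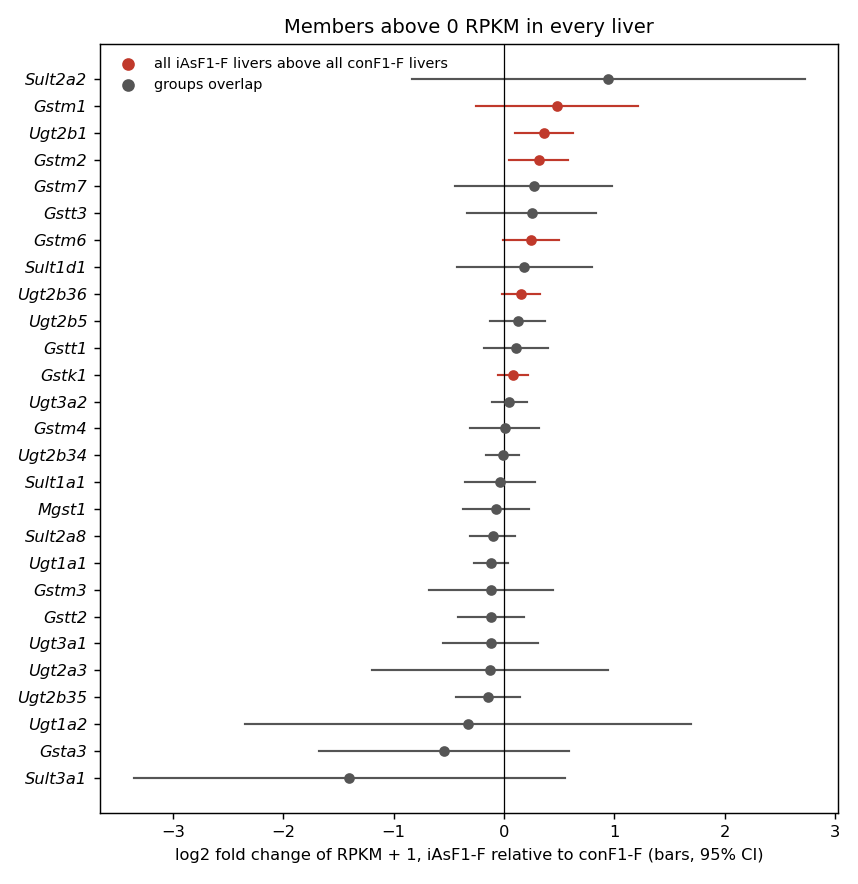
Log2 fold change of RPKM + 1, iAsF1-F relative to conF1-F, with the 95% confidence interval of the limma fit, for the 27 conjugation enzymes above 0 RPKM in every liver. Red marks the 6 members without overlap between groups, of which Ugt2b1 and Gstm2 have an unadjusted interval above 0.

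Single livers also stood out. The iAsF1-F replicate 2 was the highest of the 6 in 15 of the 39 members (38.5%), where it was highest in 13.96% of all tested genes. The conF1-F replicate 1 was the lowest in 8 members (20.5%), against 12.1% of all tested genes. Without that control liver, the count of members higher without overlap was 11 and lower 3, where fewer livers make such calls more frequent (10.9% and 9.77% of all tested genes). All 8 named above were among the 11. Scaling by median ratios left 6 of the 8, without Gstk1 and Ugt2b36, and scaling by the upper quartile left 7, without Gstk1.

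**Figure D3:**
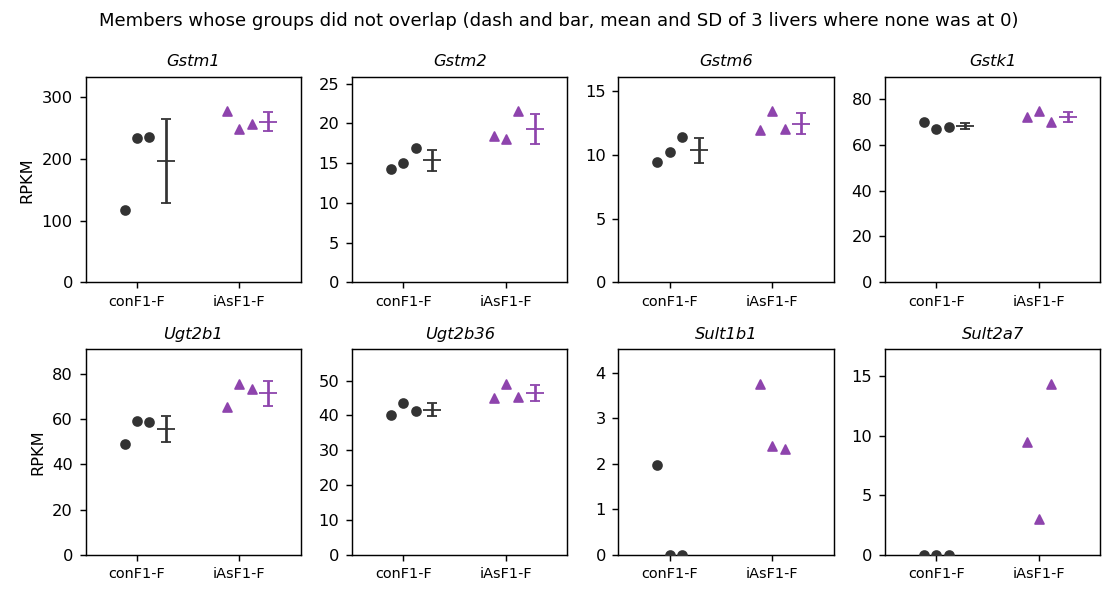
RPKM of the 8 conjugation enzymes in which every iAsF1-F liver (purple triangles) lay above every conF1-F liver (dark circles), with the mean and SD of 3 livers drawn only where no liver was at 0. The gap between the groups is narrow in Gstk1 and Ugt2b36, and in Gstm1 the conF1-F replicate 1 lies far below the other livers.

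The mu class held 3 of the 8 members without overlap, all higher in iAsF1-F (5.83% of all genes tested were higher without overlap). Its genes lie in 1 cluster on chromosome 3, and the tested ones were 82.6% to 89.4% identical to their nearest relative. Of 6 tested mu members 5 had a log2 fold change above 0 (49.7% of all genes tested), and 0 passed the adjusted threshold. Gstm1 (chr3:108012255-108017973), a major hepatic transferase, measured 117, 234 and 236 RPKM in conF1-F and 277, 248 and 256 RPKM in iAsF1-F. The conF1-F replicate 1 lay far below the other 5 livers, and without it the log2 fold change went from 0.48 (95% CI −0.26 to 1.21) to 0.14.

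Gstm2 (chr3:107981702-107986453) was steadier. It measured 14.2, 14.99 and 16.8 RPKM in conF1-F and 18.4, 18.0 and 21.5 RPKM in iAsF1-F. The log2 fold change was 0.31 with a SE of 0.11 (limma unadjusted p = 0.0292, adjusted p = 0.877, exact permutation p = 0.1, two-sided, the smallest that 3 against 3 can give). Gstm6 lay at 9.49, 10.2 and 11.5 RPKM in conF1-F and 11.99, 13.4 and 12.02 RPKM in iAsF1-F, a log2 fold change of 0.25 (SE 0.10). In both genes the lowest iAsF1-F liver lay only a little above the highest control.

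The other mu members overlapped between groups. Gstm4 had a log2 fold change of 0.01 (95% CI −0.31 to 0.32), Gstm3 of −0.12 (−0.68 to 0.45) and Gstm7 of 0.27 (−0.44 to 0.98). Gstm3 took 59.4 RPKM on average, Gstm4 12.6 and Gstm7 8.07 RPKM. Gstm7 was lowest in conF1-F replicate 1, at 4.47 RPKM, and without that liver its log2 fold change was −0.01. Summed over the class, conF1-F had 205, 350.0 and 357 RPKM and iAsF1-F 398, 344.5 and 370 RPKM, with overlap.

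Among alpha-class enzymes, conF1-F replicate 1 stood on the other side. Gsta3 (chr1:21240589-21265661), the mouse enzyme that conjugates the reactive epoxide of aflatoxin, measured 158, 53.8 and 54.3 RPKM in conF1-F and 59.5, 51.4 and 47.9 RPKM in iAsF1-F. That liver had the highest Gsta3 and the lowest Gstm1 of all, and without it the log2 fold change of Gsta3 went from −0.55 (95% CI −1.68 to 0.58) to −0.03. Gsta4, which conjugates the lipid peroxidation product 4-hydroxynonenal, was listed at 0 in all 3 conF1-F livers and in iAsF1-F replicate 1, and at 33.0 and 31.6 RPKM in the other two. High values and a 0 thus stood side by side within the iAsF1-F group. In the same limma test its adjusted p was 0.877, and 0.00262 without iAsF1-F replicate 1.

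The kappa enzyme Gstk1, found in mitochondria and peroxisomes, was one of the steadiest members. It measured 69.7, 66.8 and 67.7 RPKM in conF1-F and 71.9, 74.4 and 69.7 RPKM in iAsF1-F, so that the highest control (69.67) and the lowest iAsF1-F liver (69.70) nearly met. Its log2 fold change was 0.08 (95% CI −0.06 to 0.22). The theta enzymes, which act on small halogenated molecules, overlapped between groups, with log2 fold changes of 0.11 for Gstt1 (54.4 RPKM on average), 0.25 for Gstt3 (21.2 RPKM) and −0.12 for Gstt2 (19.6 RPKM). Gstt3 was lowest in conF1-F replicate 1, at 12.9 RPKM, and without it its log2 fold change was −0.01.

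Mgst1, the membrane-bound transferase of the endoplasmic reticulum and outer mitochondrial membrane, measured 274, 274 and 292 RPKM in conF1-F and 234, 256 and 315 RPKM in iAsF1-F. The iAsF1-F livers lay on both sides of the controls, and the log2 fold change was −0.07 (95% CI −0.37 to 0.23). Gstp3, the single pi-class member in the table, was listed at 0 in conF1-F replicates 2 and 3 and in iAsF1-F replicate 3, and at 5.95 RPKM in the other control and 5.72 and 3.98 RPKM in the other iAsF1-F livers.

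The Ugt1 genes held the highest single member. Ugt1a1 (chr1:88211959-88218997), which conjugates bilirubin, measured 391, 401 and 379.5 RPKM in conF1-F and 385, 355 and 342 RPKM in iAsF1-F. The groups overlapped through iAsF1-F replicate 1, and the log2 fold change was −0.11 (95% CI −0.27 to 0.04, limma adjusted p = 0.877). Ugt1a2 measured 55.1, 22.3 and 51.1 RPKM in conF1-F and 54.7, 9.17 and 59.6 RPKM in iAsF1-F, low in replicate 2 of either group.

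In the same livers where Ugt1a2 was low, the phenol-conjugating Ugt1a6 genes were at their highest of their group. Ugt1a6b was listed at 0 in conF1-F replicates 1 and 3, at 30.3 RPKM in conF1-F replicate 2, and at 17.1, 41.8 and 37.7 RPKM in iAsF1-F. Ugt1a6a had 0, 28.9 and 0 RPKM in conF1-F and 9.46, 41.2 and 27.7 RPKM in iAsF1-F. The 2 genes were thus at 0 in the same livers, and 1 control liver lay within the iAsF1-F range for both. Without that liver, conF1-F replicate 2, the limma adjusted p of Ugt1a6b was 0.0402, from 0.877 with all 6.

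Ugt1a9, which also acts on phenols, was listed at 39.8, 31.7 and 0 RPKM in conF1-F against 33.7, 45.7 and 27.2 RPKM in iAsF1-F. Its close copy Ugt1a10 was at 5.65 RPKM in conF1-F replicate 3 alone, the liver in which Ugt1a9 was at 0, and at 0 in the other 5. Ugt1a9 was above 0 wherever Ugt1a10 was at 0. Without conF1-F replicate 3 the log2 fold change of Ugt1a9 was −0.03.

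Summed over the Ugt1 genes, the level was 486, 514 and 436 RPKM in conF1-F and 499.7, 493 and 494.5 RPKM in iAsF1-F, with overlap. The 3 iAsF1-F sums lay close together although Ugt1a2, Ugt1a6a and Ugt1a6b differed widely between those livers. Without Ugt1a1 the other 5 genes summed to 94.9, 113 and 56.7 RPKM in conF1-F and to 115, 138 and 152 RPKM in iAsF1-F, which did not overlap. That sum was chosen after the values of its genes were seen.

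**Figure D4:**
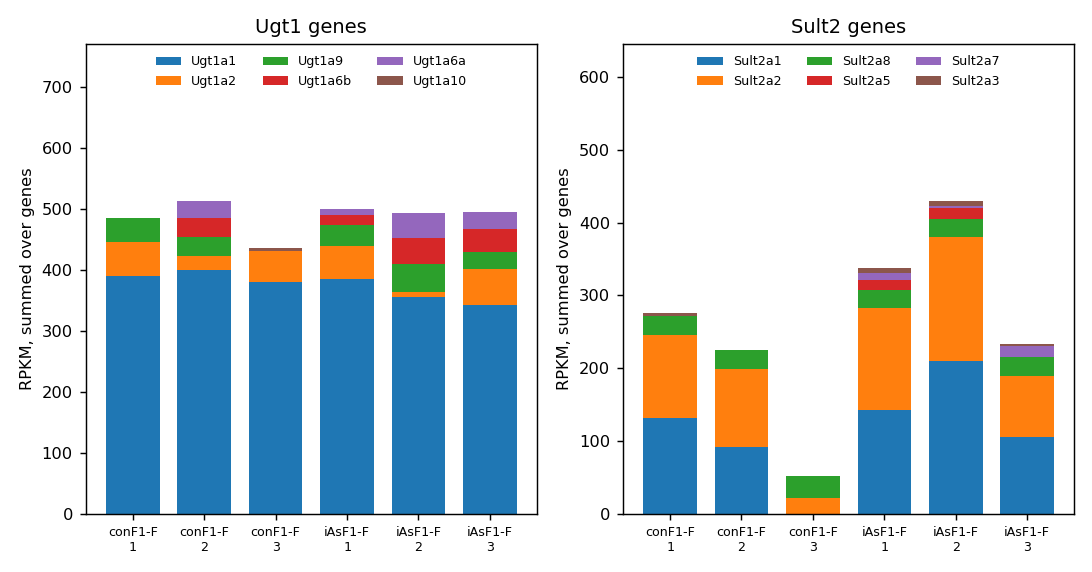
Stacked RPKM of the Ugt1 genes (left) and the Sult2 genes (right) in each of the 3 conF1-F and 3 iAsF1-F livers. The Ugt1 bars have similar heights (436 to 514 RPKM) with different genes in them, while the Sult2 bar of conF1-F replicate 3 is far lower than the rest.

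The Ugt2 genes form a cluster on chromosome 5, their enzymes act on steroids, bile acids and drugs, and 2 of the 7 were higher without overlap, against 5.83% of all genes tested. Ugt2b1 (chr5:86916638-86926530) was the member above 0 in every liver with the smallest p. It measured 49.0, 59.3 and 58.6 RPKM in conF1-F and 65.4, 75.8 and 73.6 RPKM in iAsF1-F. The log2 fold change was 0.36 with a SE of 0.10 (limma unadjusted p = 0.0160, adjusted p = 0.877, exact permutation p = 0.1). The lowest iAsF1-F liver lay above the highest control.

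Ugt2b36 lay at 40.0, 43.7 and 41.3 RPKM in conF1-F and 44.9, 49.1 and 45.2 RPKM in iAsF1-F, a log2 fold change of 0.15 (95% CI −0.02 to 0.32). Its nearest relative Ugt2b35, at 88.5% identity, had a log2 fold change of −0.14 (−0.43 to 0.14), with overlap. Ugt2b5, the most abundant of the family, measured 174, 195 and 219 RPKM in conF1-F and 200.4, 219 and 219 RPKM in iAsF1-F, with a log2 fold change of 0.12 (−0.13 to 0.37). Its close copy Ugt2b37 was listed at 19.9 RPKM in conF1-F replicate 3 and at 0 in the other 5 livers, so that a level for that gene rests on 1 liver.

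Ugt2b34 was the steadiest member in the controls, with a coefficient of variation of 0.590%. It averaged 92.9 ± 0.548 RPKM (SD, n = 3) in conF1-F and 92.1 ± 5.17 RPKM in iAsF1-F, a log2 fold change of −0.01 (95% CI −0.16 to 0.14). Ugt2a3 was among the least steady, at 66.4, 34.7 and 75.7 RPKM in conF1-F and 38.8, 84.0 and 40.8 RPKM in iAsF1-F. Both groups held high and low livers for Ugt2a3.

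The Ugt3 enzymes use sugars other than glucuronic acid in human. Ugt3a2 measured 61.2, 60.6 and 55.02 RPKM in conF1-F and 60.3, 61.6 and 60.7 RPKM in iAsF1-F, a log2 fold change of 0.05 (95% CI −0.11 to 0.21). Ugt3a1 averaged 13.4 RPKM, with a log2 fold change of −0.12 (−0.55 to 0.31). Neither separated the groups.

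Sulfotransferases varied widely between livers. The Sult1 enzymes act on phenols, catecholamines and thyroid hormones. Sult1a1 measured 68.0, 55.1 and 59.0 RPKM in conF1-F and 66.8, 58.7 and 51.9 RPKM in iAsF1-F, a log2 fold change of −0.04 (95% CI −0.36 to 0.28). Sult1d1, which sulfates catecholamines in mouse, averaged 31.4 RPKM, with a log2 fold change of 0.18 (−0.43 to 0.80). Sult1b1 was listed at 0 in conF1-F replicates 2 and 3, at 1.98 RPKM in the other control, and at 3.76, 2.39 and 2.32 RPKM in iAsF1-F (limma unadjusted p = 0.0355, adjusted p = 0.877). The groups did not overlap, at a level close to the limit of 1 RPKM.

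The Sult2a enzymes sulfate hydroxysteroids and bile acids and are known as female-predominant in mouse liver. Sult2a1 (chr7:13796246-13837409) was listed at 131, 92.3 and 0 RPKM in conF1-F against 143, 210.4 and 106 RPKM in iAsF1-F. Sult2a2 measured 115, 106 and 21.9 RPKM in conF1-F and 139, 170 and 83.8 RPKM in iAsF1-F. Both were lowest in conF1-F replicate 3 and highest in iAsF1-F replicate 2. Without conF1-F replicate 3 the log2 fold change of Sult2a2 went from 0.94 (95% CI −0.83 to 2.72) to 0.18, and that of Sult2a1 was 0.42.

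The lower-level Sult2a genes were listed at 0 in most controls. Sult2a7 (chr7:14465051-14494230) was listed at 0 in all 3 conF1-F livers and at 9.48, 3.04 and 14.4 RPKM in iAsF1-F (limma unadjusted p = 0.00129, adjusted p = 0.268). Without iAsF1-F replicate 2, the lowest of its group, its adjusted p was 0.02002. Sult2a5 was at 0 in all 3 conF1-F livers too, but also in iAsF1-F replicate 3, with 12.9 and 15.4 RPKM in the other two iAsF1-F livers (limma adjusted p = 0.877, and 0.0118 without replicate 3). Sult2a3 was listed at 4.41, 0 and 0 RPKM in conF1-F against 7.09, 6.96 and 3.87 RPKM in iAsF1-F (limma unadjusted p = 0.0423, adjusted p = 0.877). No fold is given for these 3 genes, since the fitted difference of a gene at 0 depends on the added constant.

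Sult2a8, which sulfates bile acids in mouse liver and shares less sequence with the others (69.4% at most), overlapped between groups. It measured 25.4, 26.8 and 29.9 RPKM in conF1-F and 25.5, 24.7 and 26.0 RPKM in iAsF1-F, a log2 fold change of −0.10 (95% CI −0.30 to 0.10). The conF1-F replicate 3, lowest for Sult2a1 and Sult2a2, was the highest liver for Sult2a8. Summed over the Sult2 genes, the livers had 276, 225 and 51.7 RPKM in conF1-F and 337, 430.3 and 234 RPKM in iAsF1-F. The lowest iAsF1-F liver lay below the highest control.

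Sult3a1, an amine sulfotransferase, is also known as female-predominant in mouse. It measured 4.404, 37.1 and 12.6 RPKM in conF1-F and 7.84, 3.67 and 2.65 RPKM in iAsF1-F. The log2 fold change of −1.40 (95% CI −3.36 to 0.55) was the lowest among the 27 members above 0 everywhere, with overlap through conF1-F replicate 1. Its close copy Sult3a2 was listed at 0, 0 and 17.8 RPKM in conF1-F against 3.09, 0 and 14.3 RPKM in iAsF1-F. Other genes known as female-biased in liver (12 tested) had a median log2 fold change of 0.19, with 0 past the adjusted threshold. Without overlap was 1 of them (5.83% of all genes tested were higher without overlap). This was Cyp2a4, at 164 to 231 RPKM in conF1-F and 247 to 277 RPKM in iAsF1-F.

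Values of 0 were compared with the likeness between members, as a description with no test. At least 1 liver was at 0 in 12 of the 39 tested members (30.8%) and in 1261 of 6448 tested genes (19.6%). Of these 12 members, 8 had another member with at least 90% of coding bases identical, and the median identity with the nearest member was 94.7%. Among the 27 above 0 in every liver, 5 had such a copy and the median was 82.6%. By their decimals, 24 tested members had a single entry, and all 12 members at 0 were among these. A listed 0 has no decimals to read. A single entry is thus less sure for members at 0 in many livers, such as Ugt2b37 (5 livers). A mean over several entries can hide a 0 in a single entry, so the 2 sets are not fully comparable. Of the 12 members at 0, Gsta4, Sult1b1 and Sult2a7 had no member that close. Gstp3 had no relative among the members to compare, and genes outside the table were not compared. Members without a relative are not in the medians. By liver, the tested members at 0 numbered 7, 8 and 10 in conF1-F and 2, 2 and 3 in iAsF1-F. Over all tested genes, 391, 546 and 528 were at 0 in conF1-F and 651, 376 and 316 in iAsF1-F, so iAsF1-F replicate 1 had most of all there but few among the members.

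**Figure D5:**
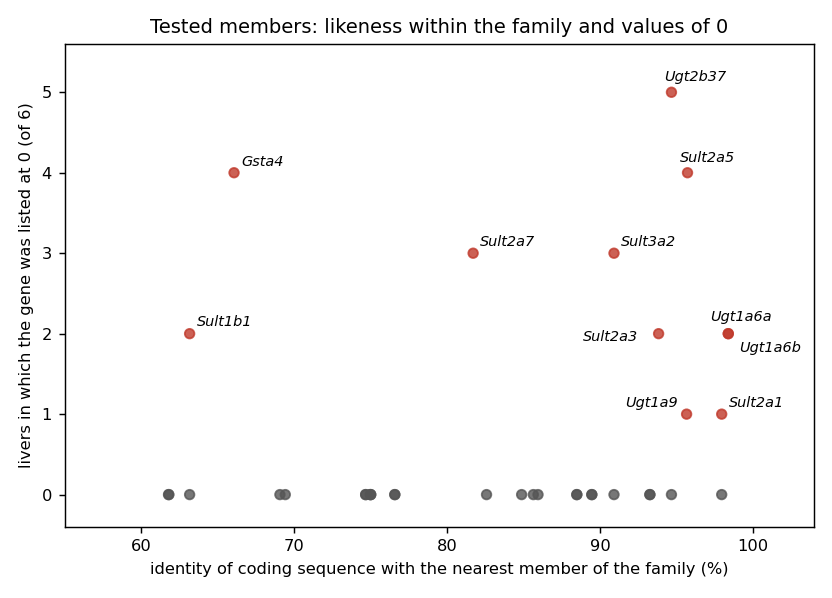
For each tested conjugation enzyme with a relative in its family, the number of livers in which it was listed at 0 (vertical axis, of 6) against the percent identity of its coding sequence with the nearest member (horizontal axis). Of the named genes with at least 1 liver at 0 (red), 8 lie at 90% or above, and Gsta4, Sult1b1 and Sult2a7 lie below. All red genes had a single entry by their decimals, which not all other genes had.

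Of 8 tested genes for glucuronic acid and sulfate donors, 1 passed the adjusted threshold, Bpnt1, which breaks down the nucleotide that sulfotransferases leave behind. Bpnt1 was listed at 7.93, 6.06 and 6.90 RPKM in conF1-F against 0, 0.142 and 0 RPKM in iAsF1-F (limma adjusted p = 0.00497). In 2 of the 3 iAsF1-F livers the value is a listed 0, and a minimum mean of 5 RPKM or leaving out genes at 0 removes the gene from the test. Whether a listed 0 stands for a low level or for a failed estimate was not tested. Baat, for example, which conjugates bile acids with amino acids, was at 0 in iAsF1-F replicate 1 and at 36.7 to 49.1 RPKM in the other 5 livers. Another 3 of the 8 donor genes were higher without overlap (5.83% of all genes tested) but did not pass. Papss2, which makes PAPS, measured 40.3, 47.0 and 36.8 RPKM in conF1-F and 59.7, 58.2 and 51.7 RPKM in iAsF1-F, a log2 fold change of 0.45 (SE 0.11, limma adjusted p = 0.793).

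Slc26a1, a sulfate transporter, measured 14.1, 9.31 and 13.7 RPKM in conF1-F and 19.31, 19.98 and 19.98 RPKM in iAsF1-F, a log2 fold change of 0.66 (SE 0.16, limma adjusted p = 0.774). Ugp2, which makes UDP-glucose, the precursor of UDP-glucuronic acid, measured 21.99, 23.8 and 23.5 RPKM in conF1-F and 27.3, 28.1 and 27.2 RPKM in iAsF1-F, a log2 fold change of 0.24 (SE 0.06, limma adjusted p = 0.810). The median log2 fold change of the 8 donor genes was 0.15. Bpnt1 and Slc26a1 are shown among the study's differentially expressed genes, which were chosen on these same livers, so their values here are not independent evidence.

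For glutathione supply, 0 of 6 tested genes passed, while 2 were higher and 1 lower without overlap (5.83% and 5.71% of all genes tested). Gclm, the modifier subunit of the enzyme that begins glutathione synthesis, was at 7.68 to 7.997 RPKM in conF1-F and 8.75 to 9.89 RPKM in iAsF1-F, with a log2 fold change of 0.21. Chac2, a glutathione-degrading enzyme, had a log2 fold change of 0.37, and Gsr, which returns oxidised glutathione to its reduced form, one of −0.26. The catalytic subunit Gclc overlapped between groups, at 91.5 ± 7.91 RPKM (SD, n = 3) in conF1-F and 91.6 ± 13.7 RPKM in iAsF1-F.

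Glutathione transferases outside the selected classes included Gstz1, an enzyme of tyrosine breakdown also in the study's own list. It measured 185, 168 and 146 RPKM in conF1-F and 266, 246 and 269 RPKM in iAsF1-F, a log2 fold change of 0.65 (SE 0.10, limma unadjusted p = 0.000980, adjusted p = 0.226). The other 6 tested genes of that list overlapped between groups. Among 11 tested enzymes of other conjugations 0 passed. Gnmt, a methyltransferase of glycine, was higher without overlap (log2 fold change 0.43). Nnmt and As3mt, which methylate nicotinamide and arsenic, were lower without overlap (−0.91 and −0.51). Over all genes tested, 5.83% were higher and 5.71% lower without overlap.

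None of 4 tested exporters and hydrolases of conjugates separated the groups. Of 10 tested regulators of conjugation genes 0 passed, with Nfe2l2 (log2 fold change 0.14) higher without overlap, and Keap1 (−0.73) and Ahr (−1.16) lower. In 6 tested male-biased liver genes, 0 passed and Ces2e alone was without overlap (0.64). The median log2 fold change of these 6 was 0.90 and 5 lay above 0, but 4 were listed at 0 in some livers. Of the 12 female-biased genes, with a median of 0.19, 7 lay above 0. Over all genes tested, 5.83% were higher and 5.71% lower without overlap. Promoters from RefSeq (GRCm38.p6, 250 bases before to 50 after the start, both strands) were matched for 38 members. The core of the antioxidant response element, TGACNNNGC, was found in those of Gsta3, Gstm5, Gstm7 and Mgst1, that is in 8.33% of 48 member promoters and 12.4% of 32851 promoters in all. The core of the xenobiotic response element, GCGTG, was in 20.8% of member promoters and 32.4% of all.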

How the data were processed

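The deposited table holds RPKM per gene, made by the authors from reads of each library, and the libraries' own tables held identical values. Tools given without roles in the submitters' notes on processing are HTSeq, STAR (2.5.3a) and DESeq2 (1.8.2), with mm10 as genome. The program behind the RPKM is not given in the sources used here. The decimals of some genes show a mean over several entries. By this reading all 12 tested members at 0 had a single entry, though values of 0 could not be used for it. The 13 cells and 13 symbols that a spreadsheet had turned into dates were restored.

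The 6448 genes that averaged 1 RPKM or more were fitted with limma 3.58.1 (R 4.3.3, trended prior) on log2(RPKM + 1), a scale that understates changes of low genes, with group as the only term and Benjamini-Hochberg adjustment over all of them. Single members also had a two-sided exact permutation test. With 3 livers per group the number of livers limits precision, and read depth is unknown. The fit was also run on simulated data, whose spread was taken from genes above 0 in every liver. That run cannot show how the fit treats genes listed at 0 in some livers.

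The members and gene lists were chosen with earlier results of these data known. Every member is accounted for by family, with each liver's value for the highest member and the member of smallest p in each family, those without overlap and those at 0 in some but not all livers. From other lists, genes with an unadjusted p under 0.05 or without overlap are named, except some that are not reported here.

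Coding sequences were read from GENCODE M21 on GRCm38, since no protein table was used, and aligned pairwise (Biopython 1.88); identity is the share of equal letters among aligned bases without gaps. Alternatives were another pseudocount (0.1), no filter or a minimum mean of 5 RPKM, a robust fit, 3 rescalings, genes at 0 left out or their 0s set as missing, the replicate number as a block, and each liver left out.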

Additional observations from a re-analysis of the deposited data

How the results depend on the processing

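The count of members past the threshold was 0 in the limma fit (5 at an unadjusted p under 0.05) and 0 to 1 when a liver was left out: Ugt1a6b without conF1-F replicate 2 (adjusted p = 0.0402), and Gsta4 (0.00262), Sult2a7 (0.02002) and Sult2a5 (0.0118) without iAsF1-F replicates 1, 2 and 3. All 4 were listed at 0 in at least 2 of the controls, and the cause was not tested. The smallest adjusted p of a member was 0.0634 with a pseudocount of 0.1. The count over all genes was 16, but 1 with a minimum mean of 5 RPKM, 0 with the replicate block (Bpnt1 included), 5 with genes at 0 left out or their 0s set as missing, and 28 to 40 with a liver left out; the cause was not tested. The median log2 fold change of members was 0.15, but 0.11 with the minimum of 5 RPKM, 0.0054 with genes at 0 left out or 0s set as missing, and 0.068 (without conF1-F replicate 1) to 0.16 with a liver left out. Members lower without overlap numbered 0, but 0 to 3 with a liver left out and 1 (Ugt1a1) with upper-quartile scaling, settings added after seeing the data; higher without overlap were 8, and 6 to 12 over these settings. Of the alternative values of single members, 571 stayed within the spread or on their side of the threshold and 21 moved further. Another 4 passed the threshold (those named above), and 0 of these changed direction. That last count covers called values only, and no member was called with all 6 livers. Among all tested members, 3 to 5 changed sign or went to 0 when a liver was left out, and 0 to 1 under the other settings. Rescaling moved the median of all genes to at most 0.02.

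Replicate numbers did not pair the livers: same-numbered deviations correlated at −0.07, 0.02 and 0.01. With the replicate block the smallest adjusted p of a member was 0.814.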
